A study of Mus musculus with 4 samples.

Results

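The kinesin family was examined in group 2 innate lymphoid cells (ILC2s) from mouse bronchoalveolar lavage (BAL) fluid, taking every gene whose symbol is Kif followed by a digit. This rule found 40 of the 24537 genes listed. By their textbook roles, 12 of them encode motors that work on the mitotic spindle or in cytokinesis, 13 encode motors that carry cargo along microtubules between divisions, and 12 encode motors with other roles. The remaining 3 are not motor genes. They are *Kif1bp*, which encodes a protein that binds kinesins, the pseudogene *Kif4-ps* and the antisense RNA *Kif16bos*.

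Kinesins hydrolyse ATP to step along microtubules or to take their ends apart. The mitotic members separate the spindle poles, push or hold chromosomes, shorten microtubules at kinetochores and build the midbody at which daughter cells part, and in many mammalian cells their RNA is made mainly in the G2 and M phases. The transport members carry vesicles, endosomes, mitochondria and ciliary proteins, and are used by dividing and resting cells alike. Conventional kinesin pairs a Kif5 heavy chain with light chains, and kinesin-2 pairs Kif3a with Kif3b or Kif3c and the adaptor Kifap3.

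RNA-Seq libraries came from 2 samples of IL-33-stimulated ILC2s and 2 samples of chronic HDM-stimulated ILC2s, all from GATIR mice (C57BL/6, 8 to 16 weeks old), whose *Gata3* gene carries an IRES-YFP insert in its 3′ untranslated region. IL-33, a cytokine that activates ILC2s directly, was given in 3 doses of 0.5 µg, and an extract of house dust mites (HDM) was given at 25 µg, 3 times a week for 5 weeks. In both groups Lineage-Sca-1+YFP+ cells were sorted 1 day after the last dose. The labels give Gata3-YFP/YFP for IL-33 and Gata3-YFP/WT for HDM mice, and CD25High and CD25Low populations, whereas the methods speak of homozygous mice alone and of no CD25 gate for this sort, so genotype, CD25 level and stimulus cannot be told apart. How many mice a library holds is not stated, so p-values measure the spread between libraries, which may be technical.

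Levels are RPKM, reads per kilobase of exon scaled to the mapped reads of the library, which allows genes of different length to be compared. The libraries held 10696041 to 12054781 reads in genes after IL-33 and 15650722 to 16092268 after chronic HDM, of which 45S ribosomal RNA took 3.45% to 4.95% and 17.4% to 25.4%. Across the 9523 genes whose mean reached 2 RPKM, Pearson's r was 0.975 between the IL-33 libraries and 0.825 between the chronic HDM libraries, taken over genes, which are not replicates. The 13 ILC2 markers were all detected, with summed levels of 2969 to 3023 RPKM after IL-33 and 1987 to 2268 RPKM after chronic HDM. They went both ways. Libraries were separate for 6 with higher values after IL-33 (41.7% of all tested genes) and for 6 with higher values after chronic HDM (23.5%). *Il2ra* and *Il5* were called higher after IL-33, as were 2.80% of all tested genes. *Il1rl1* and *Gata3*, the gene of the sort reporter, were called higher after chronic HDM, as were 0.536% of all tested genes. *Gata3* was at 14.9 and 18.9 RPKM after IL-33 against 216 and 195 RPKM after chronic HDM. Macrophage markers summed to 286 to 1245 RPKM after IL-33 and 3108 to 8518 RPKM after chronic HDM. Of the 8 tested macrophage markers, 6 had libraries that did not overlap, all higher after chronic HDM (23.5% of all tested genes), and limma called 0, with 4 at an unadjusted p under 0.05 in that direction (11.2% of all tested genes). *Chil3* and *Lyz2* made up most of the macrophage sum, while *Marco*, *Mrc1*, *C1qa* and *C1qb* had no reads in chronic HDM replicate 1. *Mertk* and *Adgre1* were instead higher in chronic HDM replicate 1 (12.8 and 9.25 RPKM) than in replicate 2 (7.88 and 3.43 RPKM). After IL-33 these genes did not exceed 0.13 RPKM. Markers of mast cells and basophils summed to 44.6 to 52.3 RPKM after IL-33 against 0 to 2.87 RPKM after chronic HDM, with 3 of 7 at 0 throughout. Most of the IL-33 sum was *Mcpt8*, at 45.8 and 39.2 RPKM, while *Cpa3* was highest in chronic HDM replicate 2 (2.87 RPKM). Granulocyte markers summed to 2.61 to 2.96 RPKM after IL-33 and 9.55 to 21.6 RPKM after chronic HDM, and epithelial markers to 5.52 to 14.5 and 25.7 to 76.0 RPKM. The epithelial sum was mostly *Epcam* in chronic HDM replicate 1 (21.5 RPKM) and *Scgb1a1* in replicate 2 (64.6 RPKM). *Krt18* had reads after IL-33 alone. Dendritic cell markers summed to 19.5 to 27.8 and 50.4 to 76.0 RPKM, but without *Itgae* to 7.46 to 8.56 after IL-33 and 3.66 to 5.18 RPKM after chronic HDM. B cell markers summed to 27.8 to 39.1 RPKM after IL-33 and 6.82 to 8.74 RPKM after chronic HDM, mostly *Cd79b*, with 3 of 6 at 0 throughout. T cell markers summed to 80.6 to 104 and 71.6 to 83.5 RPKM, mostly *Cd3g*, with 4 of 8 at 0 throughout. The part of these cells and of 45S RNA in the kinesin values was not tested.

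The 2 kinesin genes that passed the test, *Kif2c* and *Kif20a*, were mitotic and higher in IL-33-stimulated ILC2s, and every tested mitotic kinesin had higher values in both IL-33 libraries than in either chronic HDM library. The transport kinesins showed no common direction, with *Kif5b* and *Kif3a* separate and higher after IL-33, *Kif3c* separate and higher after chronic HDM, and the other 5 overlapping. A gene was called when limma on log2(RPKM + 1) gave a Benjamini-Hochberg adjusted p under 0.01 over all 9523 genes and a log2 fold change over 1. SE is the standard error of a log2 fold change. The added 1 understates the change of genes near 0. Of the 40 kinesin rows, 20 reached the mean of 2 RPKM and were tested. The 2 called, 10% of the 20, compare with 2.80% of all tested genes called in that direction and 3.34% called in either. *Kif2c* had no reads after chronic HDM, so it was tested through the IL-33 libraries alone and had to differ. The share of 10% is thus a description. None of the 20 was called higher after chronic HDM, against 0.536% of all tested genes, although *Kif3c* and *Kif21b* had an unadjusted p under 0.05 from limma in that direction. Libraries of the groups did not overlap for 13 of the 20 rows with higher values after IL-33 (41.7% of all tested genes) and for 2 with higher values after chronic HDM (23.5%, and 65.2% in either direction). In bulk RNA, fewer dividing cells and less kinesin RNA per cell cannot be told apart.

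By group, all 9 tested mitotic kinesins had separate libraries with higher values after IL-33, with log2 fold changes from 1.76 to 4.56 and a median of 3.35. The 8 tested transport kinesins ran from -1.44 to 1.72 with a median of 0.39, close to the median of 0.28 over all tested genes, and their libraries overlapped for 5 of the 8. limma called 2 of the 9 mitotic and 0 of the 8 transport members, and 9 and 3 had an unadjusted p under 0.05, which 36.7% of all tested genes had, so the transport count is near that share. With an adjusted p of 0.05 in place of 0.01, limma called 8 of the 20 tested kinesin rows higher after IL-33, 7 of them mitotic, and 1 higher after chronic HDM. Under that rule it called 1311 of all 9523 tested genes higher after IL-33 and 455 higher after chronic HDM. For 6 of the 9 tested mitotic genes (*Kif2c*, *Kif4*, *Kif11*, *Kif15*, *Kif18a* and *Kif20b*) and for *Kif13a* of the transport genes, the chronic HDM mean lay under 2 RPKM. The named mitotic genes reached the minimum through the IL-33 libraries and had to differ. The count of 9, the median of 3.35 and the counts of calls are therefore descriptions and carry no weight as evidence. *Kif22*, *Kif20a* and *Kif23* had means above 2 RPKM in both groups. The call counts moved when a library was left out, but so did those of all tested genes, as set out in the closing section. Such a fit leaves 1 library in a group. The mitotic log2 fold changes ran from 1.33 to 4.62 in these fits. As the libraries of all 9 genes were separate, leaving 1 out could not turn a sign.

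**Figure D1:**
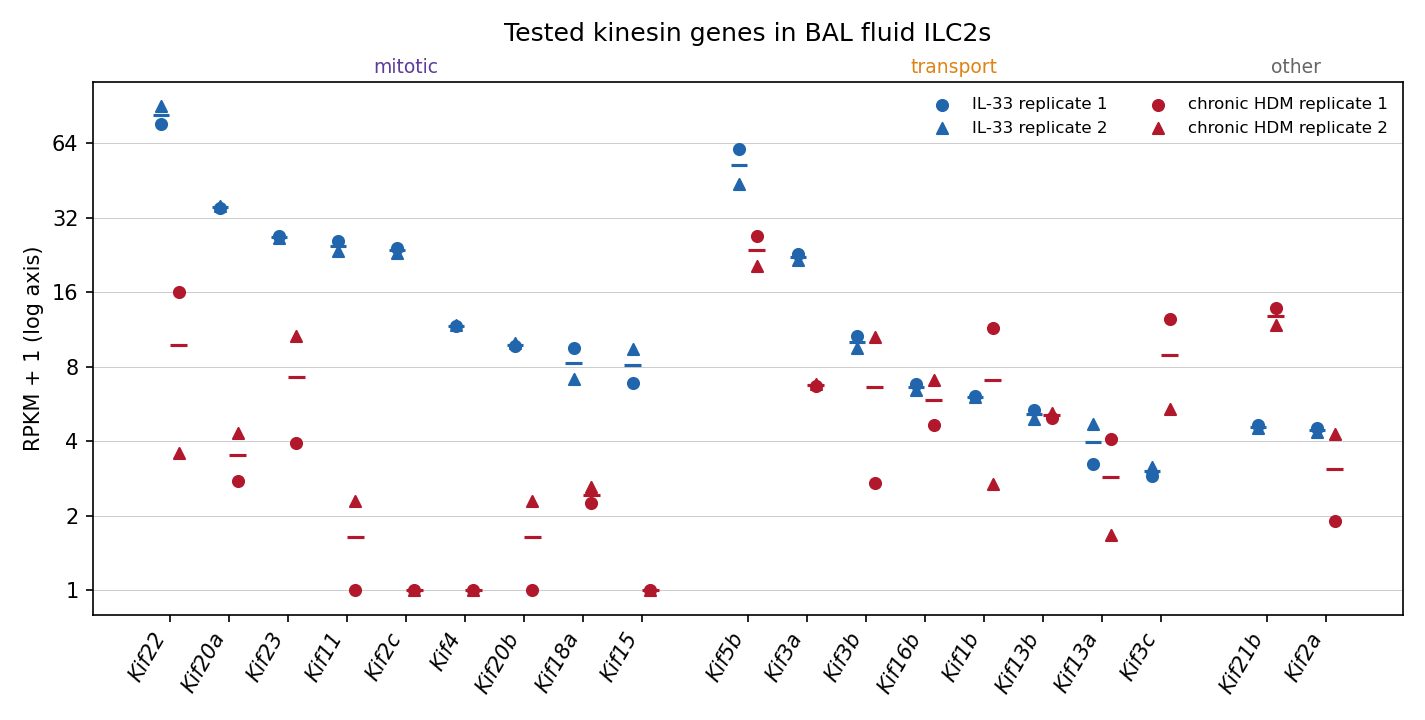
Level of each tested kinesin gene in the 4 libraries, as RPKM + 1 on a log axis, with horizontal bars for the means of 2 libraries and the genes set apart as mitotic, transport and other. The IL-33 points of all 9 mitotic genes lie above their chronic HDM points, with *Kif2c*, *Kif4* and *Kif15* at 0 RPKM in both chronic HDM libraries, while 5 of the 8 transport genes overlap.

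The highest mitotic kinesin after IL-33 was *Kif22* (chr7:127027731-127042420, mm10, minus strand), which encodes a chromokinesin that binds DNA and pushes chromosome arms away from the poles. It was at 75.2 and 88.9 RPKM in IL-33 replicates 1 and 2 and at 15.0 and 2.58 RPKM in chronic HDM replicates 1 and 2. The groups did not overlap, but the chronic HDM libraries differed 5.83-fold, and the 9.33-fold difference in means (82.0 ± 9.71 against 8.79 ± 8.79 RPKM, SD, n = 2) was not called (log2 fold change 3.45 with SE 0.71 and limma adjusted p = 0.0273). *Kif4* (chrX:100626065-100727271, plus strand), a second chromokinesin that also acts at the central spindle, was at 10.7 and 10.8 RPKM after IL-33 and was without reads after chronic HDM. Against a floor of 3 reads per library it was at least 314-fold higher after IL-33, yet limma gave an adjusted p of 0.0112 (log2 fold change 3.55 with SE 0.48). GENCODE places 753 exon bases of *Kif4* opposite *Pdzd11*, and the counting used no strand setting. The transcripts that were counted do not overlap, as that of *Pdzd11* ends at chrX:100625907. Whether reads of longer *Pdzd11* transcripts entered *Kif4* was not tested.

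Among the motors that set spindle length and hold chromosomes, *Kif2c* (chr4:117159636-117182624, minus strand) was called. It encodes a depolymerase that removes tubulin from microtubule ends at kinetochores. It was at 23.2 and 22.0 RPKM after IL-33, from 853 and 725 reads, and was without reads after chronic HDM. Both IL-33 libraries were close to each other, and the level was at least 398-fold higher than the 3-read floor. In limma it passed the threshold (log2 fold change 4.56 with SE 0.43 and adjusted p = 0.00687). The log2 fold change was 4.52 without IL-33 replicate 1 and 4.60 without IL-33 replicate 2. With all libraries kept, the call was lost with a pseudocount of 0.1 (limma adjusted p = 0.0151) and when no minimum was set (0.0335). The same held without the intensity trend (0.0134) and by limma-voom (0.0334). The call was also lost with either IL-33 library left out. *Kif18a* (chr2:109280738-109341746, plus strand), which damps chromosome movements at the spindle equator, was at 8.53 and 6.10 RPKM after IL-33 and at 1.26 and 1.61 RPKM after chronic HDM. It was 5.11-fold higher in mean and was not called (log2 fold change 1.76 with SE 0.46 and limma adjusted p = 0.0518). Its relative *Kif18b* stayed below the minimum of 2 RPKM, at 1.91 and 0.898 RPKM after IL-33 and at 0 and 0.098 RPKM after chronic HDM.

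The motors that hold the spindle poles apart showed the same separation between the groups. *Kif11* (chr19:37376403-37421859, plus strand) encodes the tetrameric motor that slides antiparallel microtubules and is the target of the spindle poison monastrol. It was at 24.7 and 22.4 RPKM after IL-33 and at 0 and 1.29 RPKM after chronic HDM. The mean was 36.4-fold higher after IL-33, with no call (log2 fold change 4.02 with SE 0.54 and limma adjusted p = 0.0113). *Kif15* (chr9:122951081-123018733, plus strand), which in human cells can keep a spindle bipolar when *Kif11* is inhibited, was at 5.87 and 8.43 RPKM after IL-33 and without reads after chronic HDM. It was at least 215-fold higher against the 3-read floor and was not called (log2 fold change 3.01 with SE 0.52 and limma adjusted p = 0.0188).

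Of the motors of the central spindle and cytokinesis, *Kif20a* and *Kif23* had reads in both chronic HDM libraries, *Kif20b* in 1 of them and *Kif14* in neither. *Kif20a* (chr18:34624936-34633277, plus strand), which brings the Aurora B complex to the central spindle, was at 33.8 and 34.6 RPKM after IL-33 and at 1.76 and 3.31 RPKM after chronic HDM. The 13.5-fold difference (34.2 ± 0.544 against 2.54 ± 1.09 RPKM, SD, n = 2) was called (log2 fold change 3.35 with SE 0.39 and limma adjusted p = 0.00858). The log2 fold change was 3.37 without IL-33 replicate 1 and 3.34 without IL-33 replicate 2. With all libraries kept, the call was lost without the trend, by limma-voom, with a pseudocount of 0.1 and when no minimum was set. The same held by median-of-ratios scaling and without 45S RNA. The adjusted p from limma or limma-voom in these fits ran from 0.0131 to 0.0380. The call was also lost with either IL-33 library left out. Its exons share 1271 bases with *Cdc23* on the opposite strand, 31.8% of its exon sequence, so part of its reads could belong to *Cdc23*, which was at 43.5 and 48.8 RPKM after IL-33 and at 12.1 and 12.1 RPKM after chronic HDM.

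*Kif23* (chr9:61917278-61946799, minus strand), the motor subunit of the centralspindlin complex, was at 25.9 and 25.3 RPKM after IL-33 and at 2.92 and 9.59 RPKM after chronic HDM. The chronic HDM libraries differed 3.28-fold, and the 4.09-fold difference between groups was not called (log2 fold change 2.05 with SE 0.54 and limma adjusted p = 0.0512). *Kif20b* (chr19:34922358-34975731, plus strand), a motor needed for the last steps of cytokinesis, was at 8.69 and 8.96 RPKM after IL-33 and at 0 and 1.30 RPKM after chronic HDM, and was not called (log2 fold change 2.70 with SE 0.59 and limma adjusted p = 0.0319). *Kif14*, a midbody motor below the minimum, was at 2.37 and 2.44 RPKM after IL-33 and without reads after chronic HDM, at least 125-fold above the 3-read floor. *Kif2b* had no reads in any library.

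**Figure D2:**
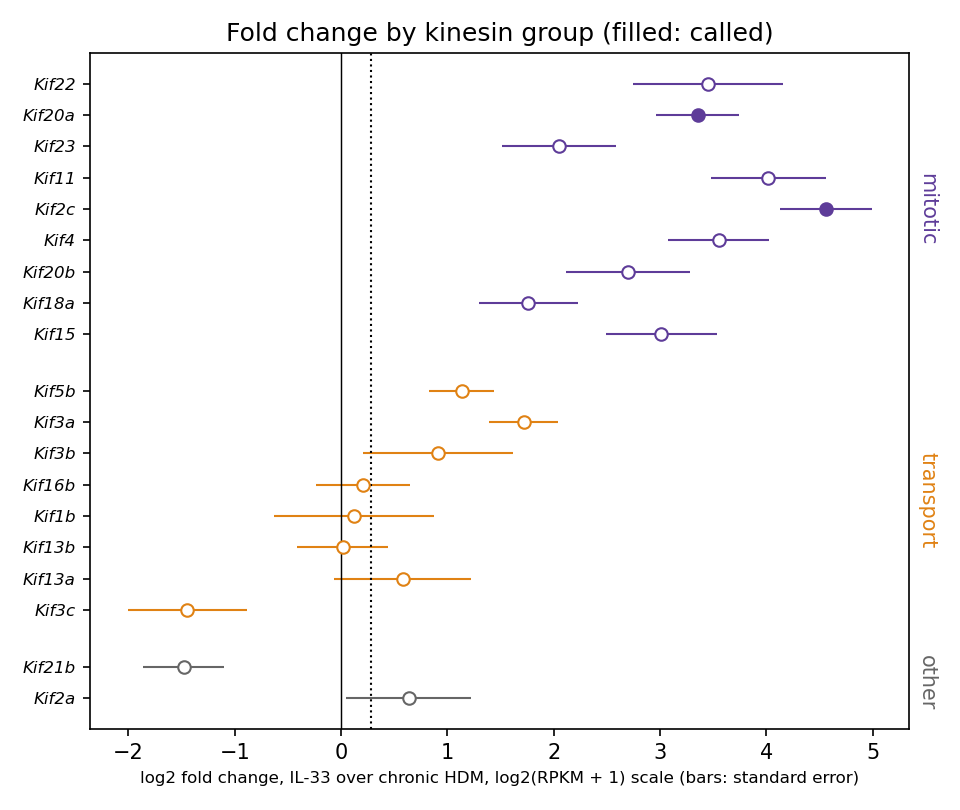
log2 fold change of each tested kinesin gene (IL-33 over chronic HDM, log2(RPKM + 1) scale) with its limma standard error, filled where called, and a dotted line where all tested genes have their median (0.28). The mitotic genes lie from 1.76 to 4.56, the transport genes from -1.44 to 1.72, and *Kif3c* and *Kif21b* are the genes below 0.

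As all 9 tested mitotic kinesins were separated in the same direction, the promoters of the family were searched on both strands. The letters of the CCAAT box were CCAAT and, for the other strand, ATTGG. Those of the cell cycle genes homology region, or CHR, were TTTGAA with its reverse complement TTCAAA, and the palindrome TTCGAA. In human and mouse cells the CCAAT box is bound by NF-Y and the CHR by the MuvB core of the DREAM complex. RefSeq promoters (GRCm38.p6, 250 bases before to 50 after the first base of the gene) were found for 32 of the 40 rows, among them 11 of the 12 mitotic and 10 of the 13 transport members. The mitotic gene without an entry was the called *Kif20a*. The transport genes without an entry were *Kif5a*, *Kif5b* and *Kif13b*. CHR letters stood in 9 of the 11 mitotic promoters, in 1 of the 10 transport promoters and in 19.2% of all 32851 promoters. They also stood in 3 of 10 promoters of motors with other roles. The 1 transport gene was *Kif1a*, which had no reads. The 3 with other roles were *Kif24*, *Kif26b* and *Kif27*, none of which reached the minimum. CCAAT letters stood in 7 mitotic, 3 transport, 4 other and 37.4% of all promoters. Both motifs stood in 6 mitotic, 0 transport, 3 other and 7.52% of all promoters. No CCAAT match overlapped a CHR match in these genes. A match of letters is a description and not evidence of binding.

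CHR letters within 50 bases of the start, a distance chosen after the matches were seen, stood in 7 of the 11 mitotic promoters. They stood in 1 of 10 transport promoters, in 2 of 10 promoters of motors with other roles and in 5.31% of all promoters. The windows below run from position -75 to 49, counted from 0 at the first base of the gene, with CCAAT and CHR letters in capitals. They show the 6 tested mitotic genes with CHR letters in that distance, and *Kif3a* as a transport motor with separate libraries and no CHR letters in its promoter.
Kif11 (chr19:37376307-37376431, plus strand): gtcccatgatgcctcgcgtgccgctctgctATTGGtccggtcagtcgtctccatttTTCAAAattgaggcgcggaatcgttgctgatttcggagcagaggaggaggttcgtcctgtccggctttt
Kif15 (chr9:122951006-122951130, plus strand): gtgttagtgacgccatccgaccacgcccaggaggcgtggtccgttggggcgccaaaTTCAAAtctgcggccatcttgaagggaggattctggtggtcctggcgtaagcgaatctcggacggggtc
Kif22 (chr7:127042371-127042495, minus strand): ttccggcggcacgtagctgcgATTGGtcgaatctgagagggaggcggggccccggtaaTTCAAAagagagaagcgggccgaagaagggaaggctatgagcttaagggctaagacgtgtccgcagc
Kif20b (chr19:34922283-34922407, plus strand): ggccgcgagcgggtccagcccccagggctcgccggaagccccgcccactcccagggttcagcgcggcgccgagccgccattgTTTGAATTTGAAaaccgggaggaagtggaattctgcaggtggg
Kif23 (chr9:61946750-61946874, minus strand): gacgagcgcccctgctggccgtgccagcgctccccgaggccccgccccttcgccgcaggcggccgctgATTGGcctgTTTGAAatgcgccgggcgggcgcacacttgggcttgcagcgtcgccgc
Kif4 (chrX:100625990-100626114, plus strand): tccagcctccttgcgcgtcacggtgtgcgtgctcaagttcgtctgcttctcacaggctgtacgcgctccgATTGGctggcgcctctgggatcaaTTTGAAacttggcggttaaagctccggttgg
Kif3a (chr11:53567294-53567418, plus strand): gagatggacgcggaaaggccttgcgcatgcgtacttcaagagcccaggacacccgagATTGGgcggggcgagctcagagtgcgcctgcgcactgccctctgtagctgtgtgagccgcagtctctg

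The CHR letters of *Kif11* and *Kif15* began at the same position, -19, and those of *Kif22* at -17. Those of *Kif23*, *Kif20b* and *Kif4* lay after the first base, at 2, 7 and 19. The start used for *Kif11* lies 21 bases from that of its counted transcript, so the position shared with *Kif15* depends on the start chosen. *Kif11*, *Kif22*, *Kif23* and *Kif4* carried an ATTGG upstream of the CHR letters, at -45, -54, -7 and -5. *Kif20b* held the letters TTTGAA at 7 and again at 13. *Kif18a* had neither motif in its promoter. The table's start of *Kif2c* lies 3852 bases from the start in the files, so its match at -103 may belong to another transcript.

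**Figure D3:**
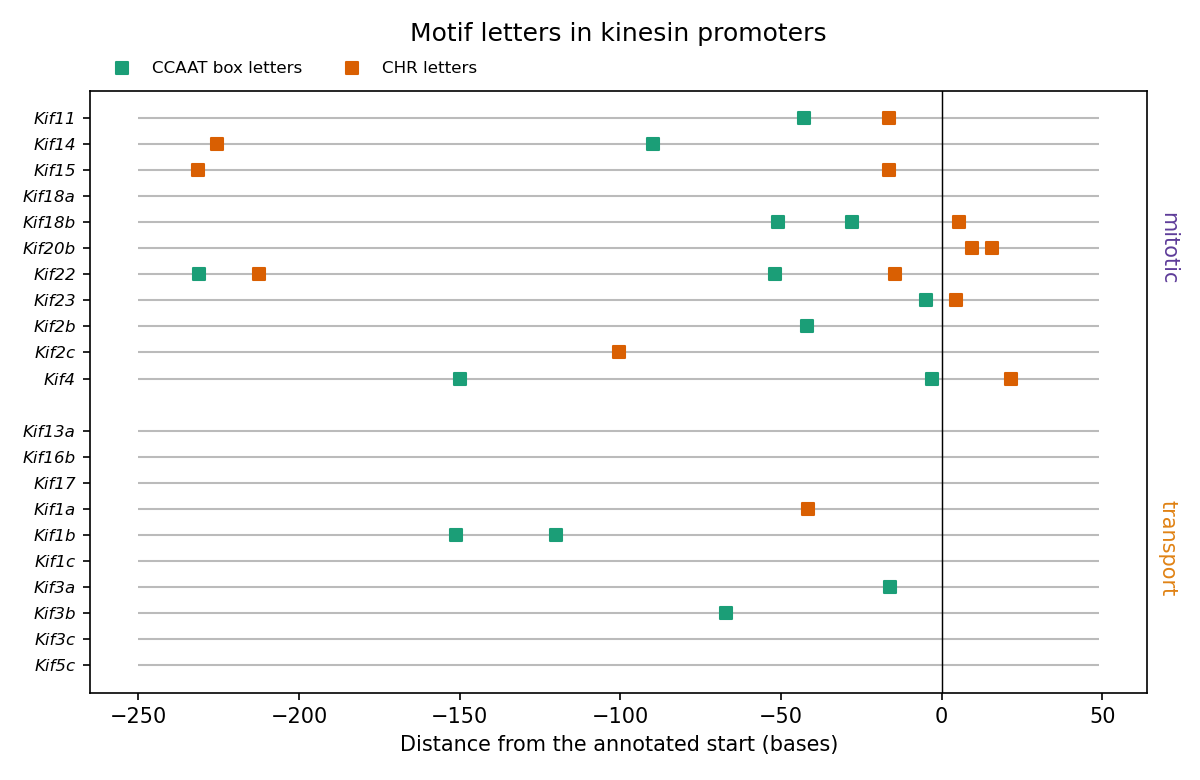
Positions of CCAAT and CHR letters in the RefSeq promoters of 11 mitotic and 10 transport kinesin genes, in bases from the first base of the gene, with 1 line per promoter and squares at the matches. CHR letters stand in 9 mitotic promoters, 7 of them within 50 bases of the start, and in 1 transport promoter (*Kif1a*).

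The transport kinesins were led by *Kif5b* (chr18:6201005-6241524, minus strand), the widely expressed heavy chain of conventional kinesin. It was at 59.6 and 42.8 RPKM after IL-33 and at 26.0 and 19.4 RPKM after chronic HDM. The groups did not overlap, but the 2.25-fold difference (51.2 ± 11.9 against 22.7 ± 4.71 RPKM, SD, n = 2) was not called (log2 fold change 1.13 with SE 0.30 and limma adjusted p = 0.0540). Its neuronal relatives were low. *Kif5c* was at 1.91 and 3.03 RPKM after IL-33 and at 1.37 and 1.17 RPKM after chronic HDM, and *Kif5a* did not reach 1 RPKM in any library. By mean level *Kif5b* ranked second among tested motors after IL-33, behind *Kif22*, and first after chronic HDM. The *Kif5b* and *Kif22* libraries did not overlap in either group.

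The subunits of kinesin-2, which drives transport into cilia and moves vesicles, did not keep one ratio. *Kif3a* (chr11:53567369-53604246, plus strand), the subunit common to both forms, was at 21.9 and 20.5 RPKM after IL-33 and at 5.70 and 5.80 RPKM after chronic HDM. Replicates lay close together in both groups and the means differed 3.69-fold, with no call (log2 fold change 1.72 with SE 0.33 and limma adjusted p = 0.0228). The log2 fold change was 1.71 without chronic HDM replicate 1 and 1.73 without chronic HDM replicate 2. Its partner *Kif3b* was at 9.63 and 8.50 RPKM after IL-33 and at 1.71 and 9.59 RPKM after chronic HDM. Chronic HDM replicate 2 lay between the IL-33 libraries and replicate 1 below both. The *Kif3b* log2 fold change of 0.91 (SE 0.70, limma adjusted p = 0.399) became -0.075 without chronic HDM replicate 1 and 1.89 without chronic HDM replicate 2.

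The alternative partner *Kif3c* (chr12:3365132-3406494, plus strand) went the other way. It was at 1.90 and 2.14 RPKM after IL-33 and at 11.5 and 4.40 RPKM after chronic HDM. The groups did not overlap, and the mean was 3.93-fold higher after chronic HDM, which was not called (log2 fold change -1.44 with SE 0.56 and limma adjusted p = 0.128). The log2 fold change was -0.84 without chronic HDM replicate 1 and -2.05 without chronic HDM replicate 2. GENCODE sets 2617 of its exon bases, 37.8%, opposite *1110002L01Rik*, whose values ran in parallel at 4.05 and 4.29 RPKM after IL-33 and at 13.9 and 6.27 RPKM after chronic HDM, so reads of the pair cannot be told apart.

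The ratio of *Kif3a* to the sum of *Kif3b* and *Kif3c* was 1.90 and 1.93 in the IL-33 libraries and 0.431 and 0.414 in the chronic HDM libraries. The groups did not overlap in this ratio, which was computed after the values had been seen and was not tested. With *Kif3b* alone as the partner, the IL-33 libraries gave ratios of 2.27 and 2.42. Chronic HDM replicate 1 lay above both, at 3.33, and replicate 2 below both, at 0.605, so this ratio overlapped. The separation thus depended on *Kif3c*, whose reads cannot be told apart from those of *1110002L01Rik*. The sum of *Kif3b* and *Kif3c* itself was 11.5 and 10.6 RPKM after IL-33 and came to 13.2 and 14.0 RPKM after chronic HDM. In chronic HDM replicate 1 this sum was mostly *Kif3c* and in replicate 2 mostly *Kif3b*. The adaptor *Kifap3*, named as the third subunit, was at 2.49 and 2.48 RPKM after IL-33 and at 0.716 and 4.27 RPKM after chronic HDM.

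The remaining tested transport motors overlapped between the groups. *Kif16b*, which moves early endosomes, was at 5.79 and 5.46 RPKM after IL-33 and at 3.65 and 6.07 RPKM after chronic HDM. *Kif1b*, a carrier of mitochondria and vesicle precursors, was at 5.08 and 5.02 RPKM after IL-33 and at 10.5 and 1.68 RPKM after chronic HDM, a 6.23-fold spread within the chronic HDM pair. *Kif13b*, a motor that carries the scaffold protein Dlg1, was at 4.35 and 3.94 RPKM after IL-33 and at 3.95 and 4.22 RPKM after chronic HDM. *Kif13a*, which works with the AP-1 adaptor on endosomes, was at 2.25 and 3.71 RPKM after IL-33 and at 3.09 and 0.677 RPKM after chronic HDM. Their adjusted p from limma ran from 0.555 to 0.983 and their log2 fold changes from 0.02 to 0.58. No direction can be given for *Kif16b*, *Kif1b* and *Kif13b*, whose fold changes turned negative under scaling without 45S RNA (-0.036, -0.097 and -0.22), nor for *Kif13a*, which turned to -0.064 without chronic HDM replicate 2.

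Below the minimum of 2 RPKM, *Kif1c* was at 0.340 and 0.847 RPKM after IL-33 and at 0.517 and 1.67 RPKM after chronic HDM, and *Kif17*, a motor of dendrites and cilia, had reads in chronic HDM replicate 2 alone, at 1.63 RPKM. Of the 12 motors with other roles, 2 were tested. *Kif21b* (chr1:136131401-136178014, plus strand), which limits microtubule growth and in human T cells shapes the microtubules of the immune synapse, was at 3.63 and 3.52 RPKM after IL-33 and at 12.8 and 10.8 RPKM after chronic HDM. The groups did not overlap and replicates were close. The mean was 3.30-fold higher after chronic HDM, with no call (log2 fold change -1.48 with SE 0.38 and limma adjusted p = 0.0492). It ranked second of the tested motors after chronic HDM and 16th after IL-33.

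*Kif2a*, a depolymerase related to *Kif2c* and also used outside mitosis, was at 3.52 and 3.35 RPKM after IL-33 and at 0.902 and 3.29 RPKM after chronic HDM (log2 fold change 0.63, limma adjusted p = 0.480). *Kif1bp* was at 3.69 and 4.60 RPKM after IL-33 and at 0.148 and 2.49 RPKM after chronic HDM (log2 fold change 1.36, limma adjusted p = 0.215). Its log2 fold change was 0.55 without chronic HDM replicate 1 and 2.16 without chronic HDM replicate 2. *Kif1bp* is uncertain to the extent that GENCODE places 12.7% of its exon bases opposite exons of another gene. For *Kif2a* that share is 13.2%, opposite *Dimt1*, but the transcripts that were counted for this pair do not overlap. *Kif19a*, a motor of cilia, reached 0.783 and 1.62 RPKM after IL-33 and only 0 and 0.016 RPKM after chronic HDM. All other members stayed under 1 RPKM in every library, and of the 37 motors 5 had no reads at all (*Kif1a*, *Kif2b*, *Kif12*, *Kif26a* and *Kif26b*), nor had *Kif4-ps* and *Kif16bos*.

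Summed over the 12 mitotic genes, the level was 221 and 231 RPKM after IL-33 against 21.0 and 19.8 RPKM after chronic HDM. The 13 transport genes summed to 113 and 96.4 RPKM after IL-33 and to 68.0 and 56.3 RPKM after chronic HDM. The mitotic share of all motor RPKM was 64.3% and 68.5% after IL-33 against 20.4% and 21.9% after chronic HDM, and the transport share was 33.0% and 28.6% against 66.2% and 62.3%. Both sums separated the groups, but the transport sum did so through *Kif5b* and *Kif3a*. Without these genes it was 31.9 and 33.1 RPKM after IL-33 and came to 36.3 and 31.1 RPKM after chronic HDM, and overlapped. With 2 libraries against 2, an exact permutation test cannot give a p under 0.33, so the sums were not tested.

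The small mitotic remainder after chronic HDM differed in makeup between the replicates. The chronic HDM libraries had reads for 4 and 7 of the 12 mitotic genes, against 11 and 11 after IL-33. Over all genes they had reads for 10675 and 12134, against 13102 and 12895 after IL-33, and the part of this lower gene detection in the kinesin zeros was not tested. *Kif22* made up 71.6% of the mitotic sum in chronic HDM replicate 1 and 13.0% in replicate 2, while *Kif23* made up 13.9% and 48.5%. After IL-33 the shares were 34.0% and 38.5% for *Kif22* and 11.7% and 11.0% for *Kif23*. *Mki67*, a marker of cycling cells, was at 28.6 and 31.0 RPKM after IL-33 and at 0 and 0.751 RPKM after chronic HDM. The chronic HDM replicate with 0 reads of *Mki67*, replicate 1, held 15.0 RPKM of *Kif22*. Other proliferation markers had reads there, with *Pcna* at 36.6, *Cdk1* at 4.78 and *Top2a* at 2.61 RPKM. *Mcm2* was at 0.062 RPKM in that replicate and *Ccnb1* had no reads.

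**Figure D4:**
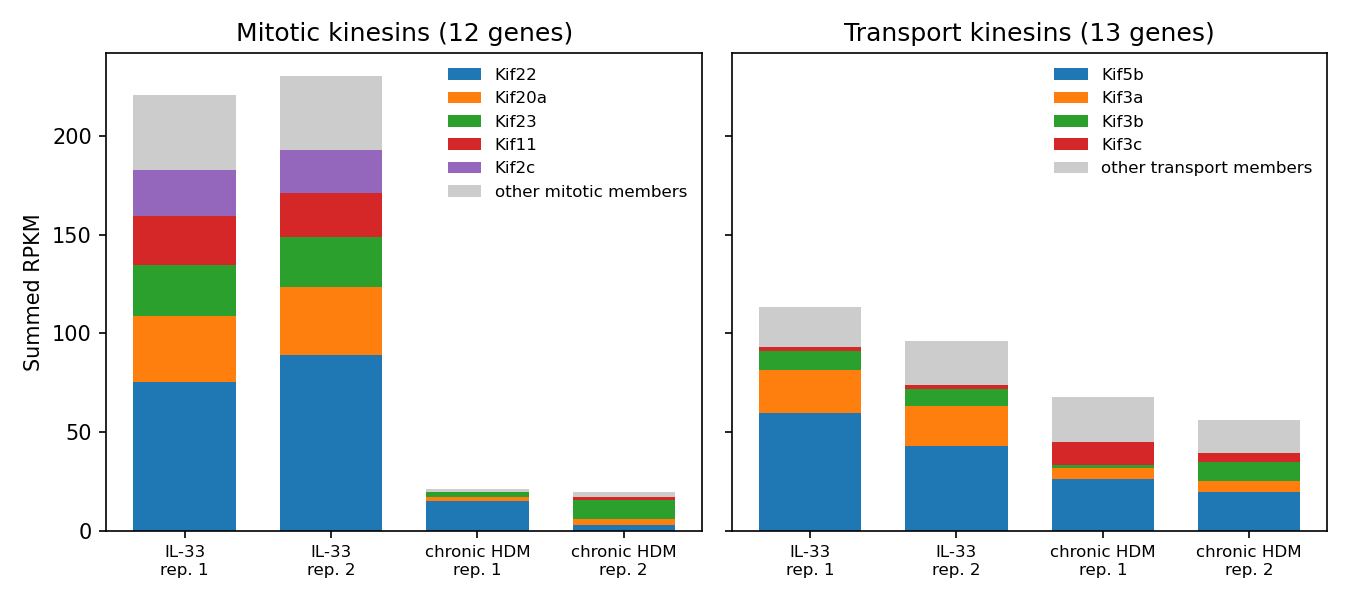
Summed RPKM of the 12 mitotic and the 13 transport kinesin genes in each library, as stacked bars from 0 on a common axis, coloured by gene. The mitotic sum is 221 and 231 RPKM after IL-33 against 21.0 and 19.8 RPKM after chronic HDM, where *Kif22* fills most of replicate 1 and *Kif23* the largest part of replicate 2.

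Proteins that work with these motors were counted by the same rule. Of 13 tested partners of mitotic kinesins, 6 were called higher after IL-33 (2.80% of all tested genes) and 0 higher after chronic HDM, all 13 had separate libraries with higher values after IL-33 (41.7% of all tested genes), and the median log2 fold change was 4.22. For 9 of the 13, including all 6 called, the chronic HDM mean was under 2 RPKM, so they entered the test through the IL-33 libraries and had to differ. The called genes were *Birc5* (log2 fold change 6.02) and *Aurkb* (5.94), which encode members of the chromosomal passenger complex, *Plk1* (5.65), a kinase of mitotic entry and exit, and the spindle proteins *Tpx2* (5.42), *Nusap1* (4.92) and *Hmmr* (4.22). *Racgap1*, which joins *Kif23* in centralspindlin, was at 54.0 and 49.4 RPKM after IL-33 and at 0.018 and 10.2 RPKM after chronic HDM (limma adjusted p = 0.0570), so that both centralspindlin genes were higher in chronic HDM replicate 2 than in replicate 1. *Cdca8*, another member of the passenger complex, was at 115 and 124 RPKM after IL-33 and at 0 and 5.29 RPKM after chronic HDM (limma adjusted p = 0.0137).

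Of the kinesins without a Kif number, the kinetochore motor *Cenpe* was at 13.2 and 14.7 RPKM after IL-33 and without reads after chronic HDM, at least 678-fold above the 3-read floor, and was called (log2 fold change 3.90 with SE 0.46 and limma adjusted p = 0.00906). The minus-end motor *Kifc1*, uncertain because its near-identical copy *Kifc5b* could share its reads, was at 11.7 and 12.4 RPKM after IL-33 and at 0 and 1.53 RPKM after chronic HDM and was not called (limma adjusted p = 0.0246). Both genes had chronic HDM means under 2 RPKM. Of the 6 proliferation markers 3 were called higher after IL-33 (2.80% of all tested genes), *Ccnb1* (log2 fold change 4.99), *Top2a* (4.86) and *Mki67* (4.54), and the chronic HDM means of *Ccnb1* and *Mki67* were under 2 RPKM. The uncalled *Pcna* was at 101 and 92.4 RPKM after IL-33 and at 36.6 and 24.1 RPKM after chronic HDM, and *Mcm2* at 106 and 122 against 0.062 and 6.68 RPKM. As for the kinesins, the call counts of these partners, motors and markers moved with a library left out. They are set beside those of all tested genes in the closing section.

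Partners of transport kinesins and the opposing motor, cytoplasmic dynein, gave medians near that of all genes. Of 13 tested transport partners, limma called 0, with 0 at an unadjusted p under 0.05 (36.7% of all tested genes) and a median log2 fold change of 0.21. The light chain *Klc1*, which couples Kif5 heavy chains to cargo, was at 56.1 and 38.4 RPKM after IL-33 and at 21.7 and 34.8 RPKM after chronic HDM, and *Klc4* was at 13.1 and 21.4 RPKM after IL-33 and at 17.4 and 17.4 RPKM after chronic HDM. Of 18 tested dynein and dynactin subunits limma called 0, with 4 at an unadjusted p under 0.05 (36.7% of all tested genes) and a median of 0.21. The most abundant were the light chain *Dynlrb1*, at 266 and 208 RPKM after IL-33 and at 110 and 110 RPKM after chronic HDM, and the dynactin subunit *Dctn3*, at 176 and 176 against 97.4 and 104 RPKM, neither of which was called (limma adjusted p = 0.0204 and 0.0324). limma-voom on recovered reads called 0 genes in these lists as well, and 0 of all genes tested.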

How the data were processed

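Smart-seq2 libraries of BAL fluid ILC2s (2 IL-33, 2 chronic HDM) were sequenced as single 51-bp reads and aligned by the authors to mm10 (HISAT2, given as version 2.0.4 by the submitters' processing notes). The authors deposited RPKM values per gene, counted by HOMER over the exons of 1 RefSeq transcript per gene with no strand option in the file headers. RPKM times exon length gave whole reads (within 0.1 of a read) for 99.8% to 100% of values worth 20 reads or fewer, and from these the depth and the floor of 3 reads per library, which on 1 kb is 0.156 to 0.255 RPKM. Smart-seq2 has no molecular identifiers, so floors cover counting error only.

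log2(RPKM + 1) values of genes whose mean reached 2 RPKM were fitted with limma (3.58.1 in R 4.3.3, empirical Bayes with intensity trend, two-sided, Benjamini-Hochberg adjustment over all tested genes). Thresholds followed the study's methods (adjusted p under 0.01, log2 fold change over 1), and the procedure was tested on simulated data. The members and lists were chosen with earlier results of these data known. Every kinesin row with a mean of at least 2 RPKM is named, lower ones where a library reached 1 RPKM, and of other lists up to 6 called genes with the largest change and up to 2 uncalled genes with the highest mean. *Kifap3*, *Kif5a*, *Cdk1*, the members without reads, the overlapping genes and the named cell type markers were added after their values were seen. Alternatives covered the pseudocount, minimum, scaling, variance model, threshold, replicate block, limma-voom on recovered reads and each library left out. Exon overlaps came from GENCODE M21 and promoters from RefSeq (GRCm38.p6). Figures were drawn with matplotlib 3.10.9.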

Additional observations from a re-analysis of the deposited data

How the results depend on the processing

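The direction of all 9 tested mitotic kinesins held under every alternative that tested them. As their libraries were separate, leaving 1 out could not change it. The number of calls did not hold. Kinesins called higher after IL-33, 2 in the report, were 0 with a pseudocount of 0.1, when no minimum was set, without the trend or by limma-voom, 1 by median-of-ratios scaling or without 45S RNA, 4 with a pseudocount of 2 or a minimum of 5 RPKM, 8 at an adjusted p of 0.05, 6 with the replicate block, and 0 to 11 with a library left out. Kinesins called higher after chronic HDM, 0 in the report, were 1 at an adjusted p of 0.05 and 0 to 1 with a library left out. For all tested genes, the 267 calls higher after IL-33 became 0 with a pseudocount of 0.1, when no minimum was set, without the trend or by limma-voom, 502 with a minimum of 5 RPKM, 148 by quantile normalization, 111 by median-of-ratios scaling, 79 without 45S RNA, 1311 at an adjusted p of 0.05, 987 with the replicate block and 0 to 1872 with a library left out. The 51 calls higher after chronic HDM became 0 under the same 4 settings, and 107, 119, 45, 41, 455, 267 and 0 to 598 under the others in that order, and a pseudocount of 2 gave 394 and 76. The 10 partners and other motors higher after IL-33 became 0 under those 4 settings, 6 by median-of-ratios scaling or without 45S RNA, 20 at an adjusted p of 0.05 or with the replicate block, and 0 to 23 with a library left out. The mitotic median of 3.35 became 4.58 and 2.67 with pseudocounts of 0.1 and 2, 3.01 and 3.50 with no minimum and a minimum of 5 RPKM, 3.02, 3.14 and 3.10 by quantile normalization, median-of-ratios scaling and without 45S RNA, 6.73 by limma-voom, and 3.03 to 3.37 with a library left out. The transport median of 0.39 became 0.59 and 0.30 with those pseudocounts, 0.91 with a minimum of 5 RPKM, 0.25, 0.22 and 0.18 by those scalings, 0.49 by limma-voom and 0.28 to 0.58 with a library left out. These scalings moved the median of all tested genes by -0.29, -0.22 and -0.27. Among single kinesin genes, *Kif1b* reversed to -0.056 by median-of-ratios scaling and -0.097 without 45S RNA, and ran from -0.92 to 1.17 with a library left out. *Kif16b* reversed to -0.036 without 45S RNA and ran from -0.095 to 0.51 with a library left out, *Kif3b* from -0.075 to 1.89 and *Kif13a* from -0.064 to 1.22. *Kif13b* reversed to -0.091 by quantile normalization, -0.094 by limma-voom, -0.17 by median-of-ratios scaling and -0.22 without 45S RNA, and ran from -0.043 to 0.074 with a library left out. The other single-gene alternatives kept their direction, 240 with the same call, 14 with a call lost (*Kif2c* and *Kif20a*) and 25 with a call gained over 10 genes. *Kif2c* had an adjusted p from 0.000205 to 0.271 over its alternatives. The cause of these changes was not tested. Same-numbered libraries did not deviate together (r = -0.038 of their deviations from the group means), so the block pairs libraries by number alone. With a library left out, the lone sample is assumed to vary like the other group. Members at 0 reads are limited by the floor of 3 reads.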
